A study of Mus musculus with 6 samples.

Results

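In mouse embryonic stem cells, 1049 of 13390 stretches of the genome with a called peak for at least 1 Polycomb subunit held peaks of Ring1B, RYBP and Suz12 and no peak of Cbx7. These member regions, 7.83% of all, were chosen by the peak lists themselves. All called peaks of the 4 subunits were pooled, peaks that shared at least 1 bp were merged into a region, and regions with the first 3 subunits and without Cbx7 were kept. The co-occurrence of the 3 subunits and the absence of Cbx7 are therefore the rule and not a result, and the widths, shares and positions given here describe peaks that the rule used, with no test. The word variant, used for such regions because the Cbx7 form of the complex was not called there, rests on the missing peak only: the list shows where Cbx7 passed the authors' threshold, and other Cbx proteins were not measured.

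Polycomb group proteins keep developmental genes silent and act in 2 main complexes. Polycomb repressive complex 1 (PRC1) has the ubiquitin ligase Ring1B (Rnf2), which marks histone H2A, at its core. In canonical PRC1 a Cbx protein, in embryonic stem cells mainly Cbx7, binds the trimethylated lysine of histone H3 that Polycomb repressive complex 2 (PRC2) places, whereas in variant PRC1 the subunit RYBP takes the place of Cbx and stimulates the ligase. Suz12 is a core subunit of PRC2, needed for its stability and activity.

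The 4 libraries came from wild-type E14Tg2A cells, a mouse embryonic stem cell line of the 129/Ola strain, which was grown without feeder cells on gelatin in serum with leukemia inhibitory factor. Chromatin was crosslinked, sonicated and precipitated with an antibody to Ring1B made in the submitters' laboratory or with commercial antibodies to Cbx7, RYBP and Suz12. There was 1 library per subunit, 2 control libraries with IgG were not analysed here, and the Suz12 library had first been submitted under an earlier record. The study compared where Cbx7 and RYBP bind, and all groups shared the same line and culture.

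The peak lists held 6982 Ring1B, 6872 RYBP, 8054 Suz12 and 2754 Cbx7 peaks. They gave positions only, on mm9, the mouse genome build named in the submitters' processing notes, so read depth, peak height and enrichment are unknown. The Cbx7 list was the shortest of the 4, and whether weaker Cbx7 binding lay under the members was not tested. The name of the RYBP list ends in another number than those of the other lists, with no meaning stated. RYBP widths, shares and counts may therefore rest on another calling setting, which could not be checked. With only the peaks of at least the median width of their list, the same rule gave 524 regions, which overlapped 370 of the 1049 members, and with the lists cut to equal length by width it gave 213. With 1 library per subunit there was no replicate check. The intervals below are 95% intervals, Wilson's for shares and order-statistic intervals for medians. They cover the number of regions only, not the error between libraries, and neighbouring regions are not independent.

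The members held 1074 Ring1B peaks (15.4% of that list), 1098 RYBP peaks (16.0%, or 8.68% with lists of equal length) and 1079 Suz12 peaks (13.4%), on 2.44 Mb of sequence. They made up 15.6% of the 6721 regions with a Ring1B peak (14.8 to 16.5%). Among the 2284 regions in which Ring1B met RYBP they made up 45.9% (43.9 to 48.0%). The other regions with both had Cbx7 and Suz12 as well (789 regions with all 4 subunits) or neither (446 regions of Ring1B and RYBP alone). Among the 3148 regions with Ring1B and Suz12 but no Cbx7, 33.3% (31.7 to 35.0%) had a RYBP peak and so were members, and 2099 regions had Ring1B and Suz12 alone. In 986 members (94.0%) each subunit had exactly 1 peak, and the other 63 had 2 or more peaks of at least 1 subunit: 34 of RYBP, 22 of Ring1B and 23 of Suz12, with some regions counted under more than 1.

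A typical member was a stretch of about 2 kb in which the 3 peaks lay on top of each other. At chr12:85393564-85395556, the region closest to the median in width and covered shares, the Ring1B peak was 1738 bp wide, the RYBP peak 1393 bp and the Suz12 peak 1845 bp. The 3 peaks shared 1369 bp, or 68.7% of the 1992 bp region. The next most typical region, chr6:90685805-90688074, had a Ring1B peak of 2037 bp, a Suz12 peak of 2015 bp and a RYBP peak of 1599 bp, and 60.2% of it lay under all 3. In both regions the RYBP peak was the narrowest of the 3, and in both it started downstream of the Ring1B start. At chr17:29458113-29460180 the Ring1B, RYBP and Suz12 peaks spanned 1831, 1533 and 1757 bp. The regions chr9:14663987-14666168 and chr12:8505440-8507491 had the same form, with 64.9% and 57.5% of their length under all 3 peaks. The nearest Cbx7 peak to these 5 regions lay between 46.0 and 671 kb away.

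Member regions had a median width of 2049 bp (1991 to 2108 bp; quartiles 1629 and 2641 bp; range 767 to 21765 bp). Regions with all 4 subunits were wider, with a median of 3242 bp (3105 to 3363 bp), and regions of Ring1B and Suz12 alone were narrower, with 1654 bp (1623 to 1685 bp). Regions of Ring1B and RYBP alone had a median of 1305.5 bp (1272 to 1368 bp). The order of members between the all-4 regions and those of Ring1B and Suz12 held in the medians of all 19 chromosomes with 18 or more members, on which the member median ran from 1727 to 2552 bp. Part of this order follows from the rule, since a merged region spans all of its peaks and a wider region is more likely to meet a further peak. How much of it does was not tested.

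The order was also seen in the single peaks, as the plot of peak widths shows. The Ring1B peak, the mark of any PRC1, had a median width of 1716 bp (1667 to 1775 bp) in members, against 2866.5 bp in all-4 regions, 1413 bp in regions of Ring1B and Suz12 alone and 976.5 bp in regions of Ring1B and RYBP alone. The Suz12 peak, the mark of PRC2, had 1817 bp (1761 to 1867 bp) in members, 2892 bp in all-4 regions and 1500 bp with Ring1B alone. The RYBP peak varied less: its median was 1321.5 bp (1289 to 1358 bp) in members, 1338 bp (1304 to 1368 bp) in all-4 regions, 1225.5 bp with Ring1B alone and 1176.5 bp (1164 to 1188 bp) where RYBP stood alone. The member and all-4 intervals of RYBP width overlapped, whereas those of Ring1B and Suz12 width lay far apart. This is a description of peaks that the rule used. A wider Ring1B or Suz12 peak is also more likely to meet a Cbx7 peak, and how much of the contrast follows from that was not tested. In the whole lists, RYBP widths also spread least, with 5th and 95th percentiles of 877 and 2135 bp (median 1219 bp). These percentiles were 572 and 4548 bp for Ring1B (median 1639 bp), and 518 and 4391 bp for Suz12 (median 1583.5 bp). The small variation of RYBP width is thus not particular to these kinds of region. How much of the contrast follows from the lists was not tested.

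**Figure D1:**
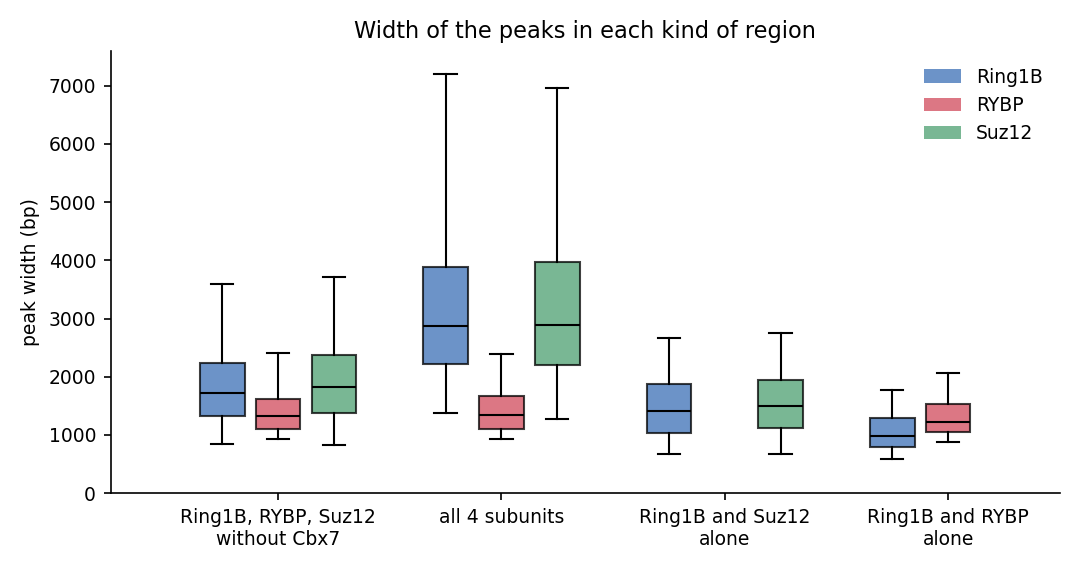
Width of single Ring1B, RYBP and Suz12 peaks in bp (boxes: quartiles with the median; whiskers: 5th to 95th percentile) in 4 kinds of region. The Ring1B and Suz12 medians of the member regions lie below those of all-4 regions (1716 against 2866.5 bp and 1817 against 2892 bp). The boxes of these kinds overlap at their edges, and the RYBP boxes are nearly level (medians 1321.5 against 1338 bp).

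Across the 986 members with 1 peak of each subunit, Ring1B and Suz12 widths rose together (Spearman's rho 0.81) and the RYBP width followed both less closely (rho 0.36 with Ring1B and 0.32 with Suz12). In the 647 all-4 regions with 1 peak each of Ring1B, RYBP and Suz12 the same values were 0.93, 0.18 and 0.17. These correlations are over regions of the same 3 libraries and are given as a description only. RYBP was the narrowest of the 3 peaks in 65.0% of the 986 members (62.0 to 67.9%) and the widest in 17.7%. Suz12 was the widest in 46.3% and Ring1B in 35.9%.

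The Suz12 peaks covered the members most fully and the RYBP peaks least. The median covered share of a member was 92.4% for Suz12 (90.9 to 93.3%), 88.0% for Ring1B (87.1 to 89.1%) and 70.8% for RYBP (68.8 to 73.0%). All 3 at once lay over a median of 59.9% (58.6 to 61.3%; quartiles 46.7 and 72.0%). In 205 members RYBP covered 90% or more of the region, and in 198 it covered less than 50%. Suz12 covered less than 50% in 29 members and Ring1B in 34. In all-4 regions the RYBP share was lower, with a median of 45.3%, as a RYBP peak of about the same width lay in a wider region. There the Ring1B and Suz12 shares were 95.6% and 96.7%.

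**Figure D2:**
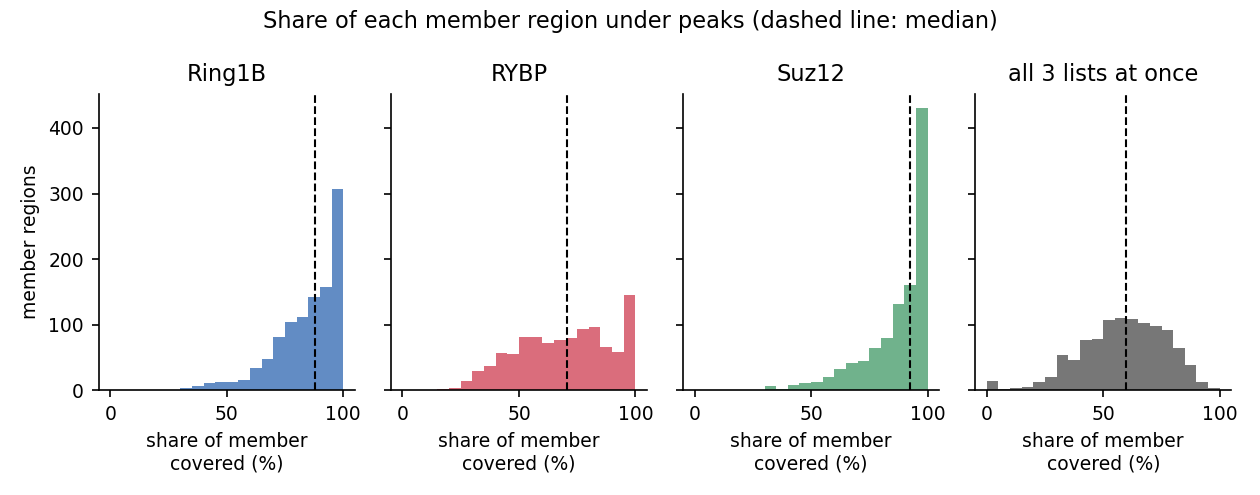
Number of member regions by the share of their length, in percent, covered by Ring1B peaks, by RYBP peaks, by Suz12 peaks and by all 3 at once (bins of 5%; dashed lines at the medians of 88.0%, 70.8%, 92.4% and 59.9%). Ring1B and Suz12 pile up near full cover, whereas RYBP spreads over the whole range above about 20%.

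Counted over bases in place of regions, 54.9% of the member sequence lay under all 3 subunits. The next largest part was Ring1B with Suz12 but without RYBP, at 21.0%. Suz12 alone covered 8.09%, Ring1B alone 4.67% and RYBP alone 4.47%, and the pairs of RYBP with Suz12 and of RYBP with Ring1B covered 4.02% and 2.78%. So where only 2 of the subunits lay over a member base, those were mostly Ring1B and Suz12. In all-4 regions the sequence under Ring1B and Suz12 without RYBP was the largest part, at 49.6%, and that under all 3 came to 39.3%.

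The RYBP bases of members mostly lay under Ring1B: 87.2% of all of them did, against 98.0% in all-4 regions and 73.4% in regions of Ring1B and RYBP alone. Of the Ring1B bases of members 91.1% lay under Suz12, close to the 90.9% in regions of Ring1B and Suz12 alone. Only 69.2% of the Ring1B bases lay under RYBP (42.3% in all-4 regions and 91.8% in regions of Ring1B and RYBP alone). In 439 members (41.8%) every RYBP base was also a Ring1B base, and in 321 (30.6%) every Ring1B base was a Suz12 base.

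Of the 3 pairs of midpoints, those of Ring1B and Suz12 lay closest. In the 986 members with 1 peak of each, the Suz12 midpoint lay a median of 102 bp from the Ring1B midpoint (92.5 to 110.5 bp) and the RYBP midpoint 168.5 bp from it (152 to 182.5 bp). With lists cut to equal length by width, which keeps wider peaks, the RYBP value was 276 bp (242 to 336 bp). RYBP and Suz12 midpoints were 184 bp apart (165 to 199 bp). The distance was at most 100 bp in 49.7% of members for Suz12 with Ring1B and in 33.3% for RYBP with Ring1B. It was above 500 bp in 3.25% and 12.9%. In all-4 regions the Suz12 distance was similar, at 90.5 bp (81 to 101 bp), and the RYBP distance longer, at 268 bp (243 to 295.5 bp). Set against the size of the Ring1B peak, the RYBP midpoint was displaced by a median of 20.1% of its half-width in members (18.7 to 21.3%), and by 19.8% in all-4 regions (17.6 to 21.0%), so that on this relative scale the intervals overlapped.

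**Figure D3:**
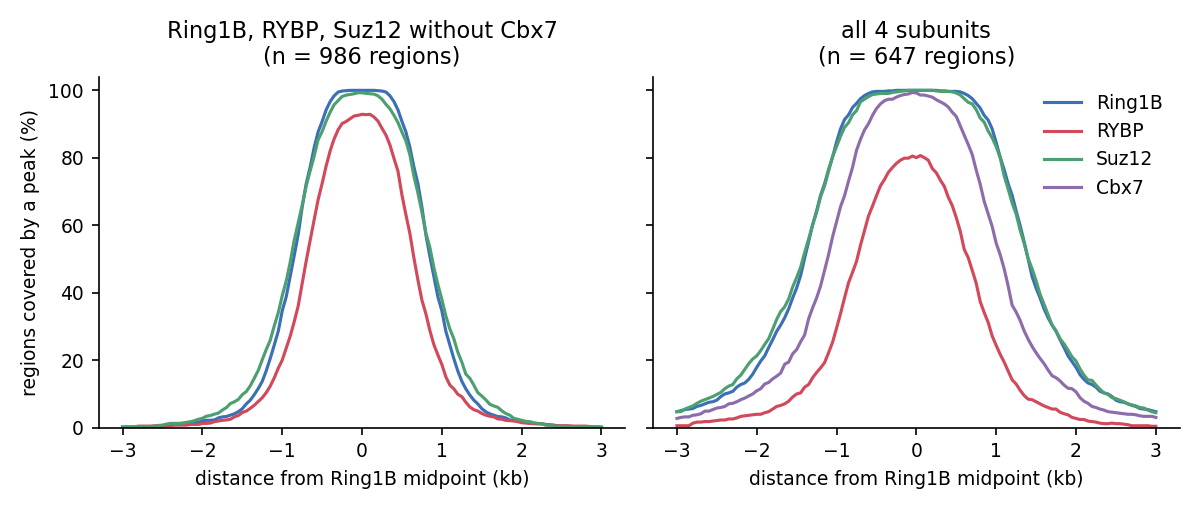
Share of regions, in percent, covered by a Ring1B, RYBP, Suz12 or Cbx7 peak at each distance in kb from the Ring1B midpoint, for the 986 member regions and 647 all-4 regions with 1 peak each of the first 3 subunits. At the midpoint RYBP covered 92.9% of members and 80.1% of all-4 regions, and 1 kb to the right Ring1B covered 34.7% and 84.5%.

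The profile around the Ring1B midpoint put these distances together. At the midpoint itself, 99.3% of members were covered by Suz12 and 92.9% by RYBP. At 500 bp to the left and right, in the direction of the chromosome, RYBP covered 72.4% and 69.0%, Ring1B covered 90.8% on both sides by construction, and Suz12 covered 87.8% and 87.6%. At 1000 bp, Ring1B was down to 34.7%, Suz12 to 39.1% and 38.0%, and RYBP to 20.1% and 18.8%. The profile was therefore nearly symmetric for each subunit, and beyond 2000 bp each covered under 3% of the members.

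Peak ends followed the same order. Suz12 and Ring1B ends on the same side lay a median of 119 bp apart, RYBP and Ring1B ends 212 bp, and RYBP and Suz12 ends 232 bp, over the 1972 ends of these members. In all-4 regions the first was similar, at 110 bp, and the others were 610 and 603.5 bp. Of the outermost ends of members 42.6% were those of Suz12, 31.1% of Ring1B and 25.9% of RYBP. Of the innermost ends 56.5% were those of RYBP.

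The RYBP peak lay wholly inside the Ring1B peak in 419 of the 986 members (42.5%; 39.4 to 45.6%) and reached past it on 1 side in 413 (41.9%; 38.8 to 45.0%). It spanned the whole Ring1B peak in 149 (15.1%) and lay apart from it in 5. In all-4 regions the RYBP peak was inside in 82.5% (79.4 to 85.3%), and in regions of Ring1B and RYBP alone, where the full Ring1B peak lay within RYBP in 61.0%, all RYBP bases lay under Ring1B in 6.05%. On the full lists, members thus stood between these kinds in how far RYBP was enclosed. The member share depended on the lists. It was 59.0% (54.6 to 63.2%) with only the peaks of at least median width. With lists cut to equal length by width it was 56.3% (49.3 to 63.0%). The other kinds were not rerun under these settings. RYBP was inside both Ring1B and Suz12 in 336 members (34.1%) and reached past both at both ends in 87 (8.82%).

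These classes differed in the width of the enclosing peak more than in that of RYBP. Where RYBP lay inside, the median widths were 2045 bp for Ring1B, 1230 bp for RYBP and 2064 bp for Suz12. Where RYBP spanned Ring1B, they were 1129, 1435 and 1204 bp. Where it was offset, they were 1577, 1374 and 1648 bp, and RYBP reached a median of 138 bp past the Ring1B end (quartiles 55 and 252 bp). Since a narrow peak fits in a wide one more easily, part of this is arithmetic.

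Enclosure rose with the width of Ring1B. RYBP was inside in 1 of the 91 members with a Ring1B peak under 1000 bp, in 21.6% of the 250 from 1000 to 1500 bp and in 47.5% of the 303 from 1500 to 2000 bp. It was inside in 59.7% of the 206 from 2000 to 2500 bp, 68.8% of the 80 from 2500 to 3000 bp, and 75% of the 56 from 3000 bp. Within the same width classes the all-4 regions had higher shares from 1500 bp on, with 66.2% (54.9 to 76.0%; n = 74) against 47.5% (42.0 to 53.1%) in members at 1500 to 2000 bp, and 81.1% (73.5 to 86.8%; n = 132) against 59.7% (52.9 to 66.2%) at 2000 to 2500 bp. At 1000 to 1500 bp the shares were 21.7% (n = 23) and 21.6%. The RYBP peaks of all-4 regions were also narrower within these classes. Their median was 1237.5 bp against 1311 bp in members at 1500 to 2000 bp, and 1343 against 1462.5 bp at 2000 to 2500 bp. How much of the contrast follows from this was not tested. The median RYBP width rose from 1094 bp in the members with the narrowest Ring1B peaks to 1557.5 bp in those with the widest, and the distance of the midpoints from 63 to 498 bp.

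At the well-matched end, the 3 peaks nearly coincided. The most co-covered member, chr15:91736591-91741078, had a RYBP peak of 4487 bp, a Ring1B peak of 4378 bp and a Suz12 peak of 4325 bp, with 96.4% of the region under all 3. At chr9:56467009-56469640 the widths were 2531, 2615 and 2628 bp, and 96.1% was shared. At chr8:91150614-91152803 they were 2173, 2189 and 2107 bp, and 95.8% was shared. In these 3 regions RYBP was as wide as the other subunits, unlike in most members. The next were chr6:114448902-114455919, with 94.3%, and chr3:10012134-10013812, with 94.1%. Only 16 members had 90% or more of their length under all 3.

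At the other end, 10 members had no base under all 3 peaks and were joined only through a chain of overlaps. Ring1B and RYBP shared no base in 5 of them, RYBP and Suz12 in 3 and Ring1B and Suz12 in 2. At chr1:16094021-16096755 the RYBP peak ended within the Suz12 peak, sharing 133 bp with it, and did not meet Ring1B. At chr3:85690292-85692851 a Suz12 peak of 2559 bp held a Ring1B peak of 1026 bp and a RYBP peak of 1218 bp side by side. The reverse was seen at chr4:142801564-142803401, where a RYBP peak of 1837 bp held a Suz12 peak of 826 bp and a Ring1B peak of 632 bp that did not meet. At chr1:89080532-89084159 and chr6:114583135-114587873 Ring1B linked a RYBP and a Suz12 peak. At such regions the 3 subunits were neighbours and did not share a site in the peak lists.

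The members nearest to the limits of the rule were few. The smallest shared stretches above 0 were 64 bp for Ring1B with RYBP, 59 bp for Ring1B with Suz12 and 14 bp for RYBP with Suz12. Just outside, 34 of the 2099 regions of Ring1B and Suz12 alone (1.62%) had a RYBP peak within 1 kb, the nearest at 10 bp. Of the 446 regions of Ring1B and RYBP alone, 3 had a Suz12 peak within 1 kb, the nearest at 73 bp. On the Cbx7 side, the nearest member lay 163 bp from a Cbx7 peak, and 5 lay within 1 kb. In the all-4 regions, Cbx7 covered at least 19.1% and in the median 73.4% of the region.

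Most members were far from any Cbx7 peak. The median gap was 219 kb (201 to 244 kb; quartiles 80.5 and 506 kb; 485220 bp with only the peaks of at least median width), and 307 members (29.3%; 26.6 to 32.1%) had a Cbx7 peak within 100 kb. With only the peaks of at least median width, which thins the Cbx7 list too, that share was 17.2%. Lists cut to equal length by width, which keeps the whole Cbx7 list, moved it the other way. The share was then 36.6% (30.4 to 43.3%) and the median gap 153137 bp. Of the 10840 regions without Cbx7 of any kind on the full lists, 27.9% had a Cbx7 peak within 100 kb. Within 10 kb there were 59 members (5.62%; 4.39 to 7.19%), against 7.15% of these 10840 regions. On the full lists both shares were near those of all regions without Cbx7, and the distance to Cbx7 is not independent of the rule, which removed the regions that touch a Cbx7 peak.

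Regions of Ring1B and Suz12 alone had a similar median gap, 221 kb (202 to 236 kb), and a heavier near end. Of these 2099 regions 305 lay within 10 kb of Cbx7 (14.5%; 13.1 to 16.1%), and 96 within 1 kb (4.57%; 3.76 to 5.55%), where there were 5 members (0.477%; 0.204 to 1.11%). The share within 10 kb was lower in members on 18 of the 19 chromosomes with 18 or more members, the exception being chromosome 16 with 2 of 18 members and 2 of 59 other regions. Each of these chromosomes had only 0 to 7 members within 10 kb. Chromosomes of the same libraries are not replicates, so this count is a description only. The RYBP-bound kinds were all low: 2.91% of regions of Ring1B and RYBP alone, 1.74% of RYBP alone and 3.69% of RYBP and Suz12 without Ring1B lay within 10 kb. Suz12 alone and Ring1B alone had 12.1% (10.8 to 13.7%) and 9.43% (7.59 to 11.7%). The share of members within 10 kb thus lay below those of Suz12 alone, Ring1B alone, and Ring1B and Suz12 alone, and above that of RYBP alone. It was also above the other kinds with RYBP in value. There the intervals overlapped that of the members, so this part of the order is not resolved. The median gaps did not follow this order, with 211 kb for Suz12 alone and 235 kb for RYBP and Suz12 without Ring1B.

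**Figure D4:**
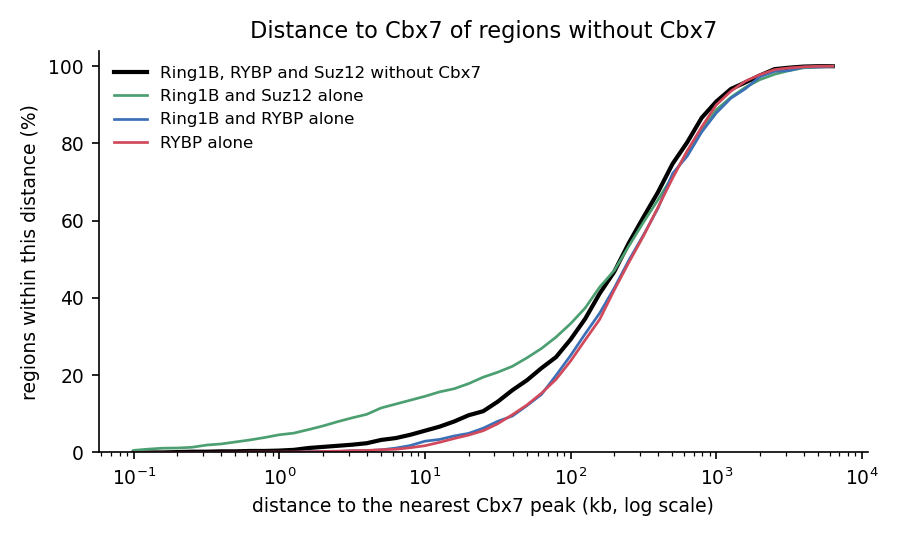
Cumulative share of regions, in percent, with a Cbx7 peak within the distance on the log-scaled horizontal axis in kb, for 4 kinds of region without Cbx7. At 10 kb the curve of Ring1B and Suz12 alone stands at 14.5% and that of the members at 5.62%, and near the median gap, about 220 kb in both, these curves meet.

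At a cut of 10 kb, width differed with closeness to Cbx7 in the regions of Ring1B and Suz12 alone but little in the members. The former had a median width of 1480 bp within 10 kb of Cbx7 and 1682.5 bp beyond, the latter 2039 and 2049 bp. In the narrowest class, under 1500 bp, 18.8% (16.3 to 21.6%) of 828 regions of Ring1B and Suz12 alone and 6.42% (3.71 to 10.9%) of 187 members lay within 10 kb. From 2000 to 3000 bp the shares were 12.1% (9.60 to 15.1%) of 547 and 4.13% (2.56 to 6.61%) of 387. From 3000 bp, the intervals overlapped, with 15.2% (9.40 to 23.5%) of 99 and 8.59% (5.19 to 13.9%) of 163. Across distance classes, the member width was 2039 bp up to 10 kb (n = 59), 2128.5 bp from 10 to 100 kb (n = 248), 2038.5 bp up to 1 Mb (n = 646) and 1899 bp beyond (n = 96). The RYBP share of the region ran only from 65.7 to 72.2% over these classes. By width class, the median gap of members to Cbx7 fell from 262 kb under 1500 bp to 166 kb from 3000 bp. The rank correlation of width and gap over all 1049 members was weak (rho -0.098). In regions of Ring1B and Suz12 alone the median gaps of these classes were 215, 235, 241 and 123 kb.

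The nearest Cbx7 peak of a member lay in a region of Ring1B, Cbx7 and Suz12 without RYBP for 517 members (49.3%; 46.3 to 52.3%), in an all-4 region for 468 (44.6%; 41.6 to 47.6%) and in a region of Cbx7 alone for 56. Of all 2754 Cbx7 peaks, 60.6%, 31.0% and 7.30% lay in these kinds. All-4 regions were thus more frequent as the nearest Cbx7 neighbours than among Cbx7 peaks at large. A Cbx7 peak can be the nearest of several members or of none, and the difference was not tested.

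The 5 members within 1 kb of Cbx7 were chr4:88447193-88450806 (163 bp), chr1:74848217-74852268 (222 bp), chr15:98887104-98888524 (368 bp), chr13:73403903-73407305 (570 bp) and chr2:146659292-146663554 (867 bp). In 4 of them the region was over 3 kb wide and RYBP covered 26.9 to 39.8% of it, which is below the median share of members. Over all 1049 members the RYBP share was lower in wider regions (rho -0.56). The 59 members within 10 kb of Cbx7 had a median RYBP share of 65.7%. At chr2:146659292-146663554, a Ring1B peak of 3750 bp and a Suz12 peak of 4246 bp held a RYBP peak of 1145 bp. The exception was chr15:98887104-98888524, 1420 bp wide and covered to 61.9% by RYBP. On chromosomes 4 and 15 the Cbx7 peak belonged to an all-4 region and in the other 3 cases to a region of Ring1B, Cbx7 and Suz12 without RYBP.

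The farthest member from Cbx7, chr8:4204960-4207390, lay 4.45 Mb from the nearest Cbx7 peak of its chromosome. It was followed by chr4:53171543-53173427 at 3.31 Mb, chr12:22085301-22087472 at 3.28 Mb, chr1:111878742-111880473 at 3.27 Mb and chr3:75759461-75761567 at 2.90 Mb. The widths of these 5 ran from 1731 to 2430 bp, within the middle of the member range. For all 5 the nearest Cbx7 peak lay in a region of Ring1B, Cbx7 and Suz12 without RYBP. They also stood far from other members, with gaps of 2902 to 6116 kb.

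Members were mostly scattered. The nearest other member lay a median of 312 kb away (284 to 367 kb), within 10 kb for 63 members (6.01%; 4.72 to 7.61%) and within 100 kb for 283 (27.0%; 24.4 to 29.7%). The same share within 10 kb was 7.48% for all-4 regions, 11.6% for regions of Ring1B and Suz12 alone and 0.448% for regions of Ring1B and RYBP alone. It was 25.3% for regions of Ring1B, Cbx7 and Suz12 without RYBP, of which 12.4% had another such region within 1 kb. Within 100 kb the shares were 21.7% for all-4 regions and 34.1% for regions of Ring1B and Suz12 alone. They were 7.62% for regions of Ring1B and RYBP alone and 36.6% for those of Ring1B, Cbx7 and Suz12 without RYBP. Among all 6721 regions with Ring1B, another such region lay within 10 kb for 26.4% and within 100 kb for 61.2%. These shares depend on how many regions a set has, from 446 to 6721 here, and were not corrected for it. When members up to 10 kb apart were strung together, 986 stood singly and 63 formed 25 runs.

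The nearest region of any kind lay a median of 24.1 kb from a member, and within 10 kb for 31.2%. It was a region of RYBP alone for 34.1% (31.3 to 37.1%; such regions were 31.7% of all), of Ring1B and Suz12 alone for 15.5% (15.7% of all) and of Suz12 alone for 14.5% (14.8% of all). For these kinds the share as neighbour was near the share among regions. Another member was the nearest for 11.9% (10.1 to 14.0%), where members were 7.83% of regions. This share includes the 3 dense stretches described below. Without them, the share of members with another member within 10 kb was 4.31% in place of 6.01%. A region of Ring1B, Cbx7 and Suz12 without RYBP was the nearest for 6.48% (5.15 to 8.14%), where they were 11.4%.

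On windows of 1 Mb, 647 held a member, of which 425 held 1 and 23 held 5 or more. The 5 fullest windows held 48 members: 11 on chromosome 6 from 114 to 115 Mb, 10 on chromosome 4 from 88 to 89 Mb, 9 on chromosome 11 from 115 to 116 Mb, and 9 each on chromosome 14 from 4 to 5 Mb and from 6 to 7 Mb. The windows on chromosomes 6 and 4 and the stretch of chromosome 14 from 3 to 7 Mb, which takes in 2 further windows of 6 members each, were singled out after their values were seen. Together they held 51 members (4.86%).

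On chromosome 6, 10 members filled 74.8% of 148 kb, chr6:114439479-114587873, and the 4 widest members of all lay there. The run held 15 Ring1B, 32 RYBP and 22 Suz12 peaks in its members and no Cbx7 peak, the nearest being 90.5 kb away. The widest member, chr6:114492174-114513939, was 21.8 kb long with 4 Ring1B, 6 RYBP and 6 Suz12 peaks, and the next, chr6:114455972-114477677, was 21.7 kb long with a single Ring1B peak of 2376 bp over 10.9% of it. There RYBP covered 82.5% and Suz12 99.6%. The Ring1B cover was thus lowest in this member of all 1049. Over all 11 members of this 1 Mb window, the median RYBP peak spanned 2097 bp, the median Suz12 peak 4574 bp and the median Ring1B peak 4260.5 bp. The gap between successive member peaks had a median of 110.5 bp for Suz12, with 11 gaps under 100 bp, of 476 bp for RYBP, with 4 under 100 bp, and of 5133 bp for Ring1B, with 2. A read signal over the run is not in the lists, and the cause of this form was not tested.

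On chromosome 4, 10 members lay in 45.4 kb, chr4:88405377-88450806, and filled 76.6% of it with 12 Ring1B, 11 RYBP and 10 Suz12 peaks. Unlike the run on chromosome 6, it bordered on Cbx7: the last member ended 163 bp before a Cbx7 peak of 1052 bp. The members there were 2213 to 5437 bp wide, with a median of 2801.5 bp, and Suz12 covered a median of 100% and RYBP 50.5% of them.

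**Figure D5:**
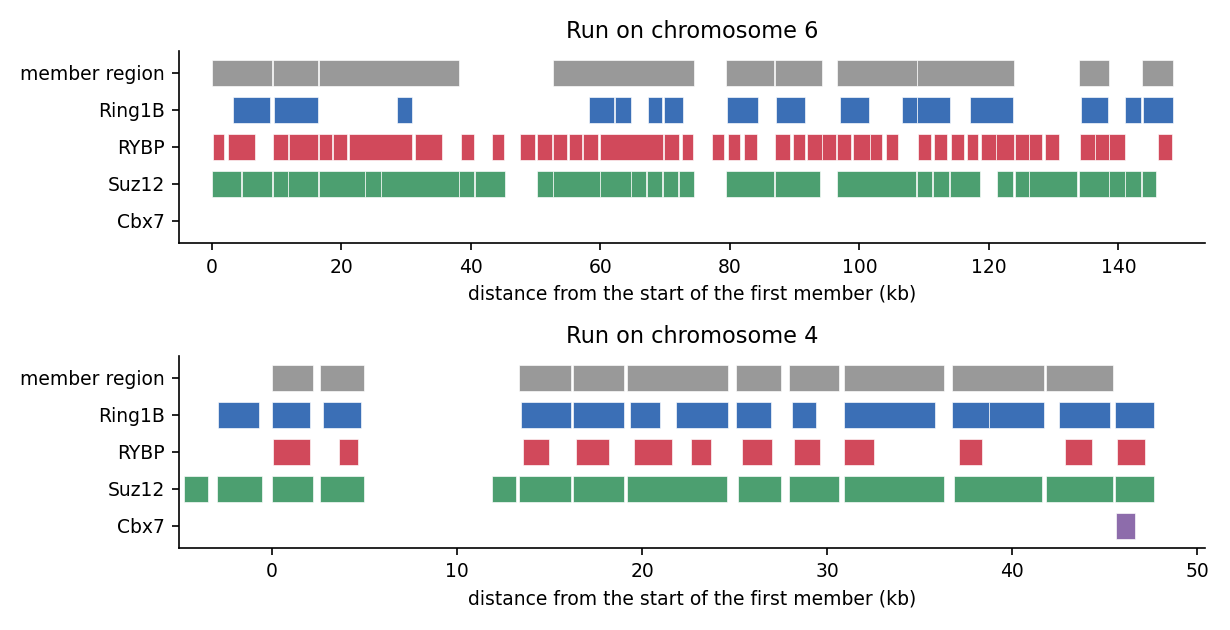
Called peaks of each subunit and the member regions along the 2 runs of 10 members, as distance in kb from the start of the first member of the run (5 kb are added on each side). The run on chromosome 6 has no Cbx7 peak and more RYBP and Suz12 peaks (32 and 22 in members) than Ring1B peaks (15), and the run on chromosome 4 ends at a Cbx7 peak.

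The third stretch had another form. On chromosome 14 from 3 to 7 Mb, 30 members followed each other at gaps of 38.1 to 363 kb, with a median of 103 kb, and they made up 81.1% (65.8 to 90.5%) of the 37 regions with Ring1B there. Their widths ran from 1876 to 4959 bp, with a median of 2593 bp. Median peak widths were 2132 bp for Ring1B (1430 to 4233 bp), 2152.5 bp for Suz12 (1415 to 2718 bp) and 1491 bp for RYBP (852 to 4774 bp). The stretch also held 63 regions of RYBP alone and 1 Cbx7 peak. Over the whole of chromosome 14, 24.2% of the regions with Ring1B were members, the highest share of any chromosome, and 15.0% (10.9 to 20.2%) without this stretch, near the 15.6% of the genome. Whether the members there share sequence was not tested.

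By chromosome, 11 had the most members with 106 (10.1%), which were 21.6% (18.2 to 25.4%) of its regions with Ring1B. The X chromosome had 4, or 1.82% (0.709 to 4.58%) of its 220 regions with Ring1B, and none of the 19 autosomes had a share below 8.33%. The X also had only 6 regions in which Ring1B met RYBP, of which the 4 members are the larger part. They were chrX:49965197-49967521, chrX:73210889-73212508, chrX:98254722-98255717 and chrX:98890739-98894072. Their widths ran from 995 to 3333 bp, and their share under all 3 peaks from 22.5 to 79.8%. The cause of the low share on X was not tested. No member lay on the Y chromosome, where 3 regions had Ring1B.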

How the data were processed

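Chromatin immunoprecipitation and sequencing was done on 1 library for each of 4 targets. The tools Bowtie 0.12.7 and MACS 1.3.7.1 and the build mm9 stand in the submitters' processing notes with no role stated, and nothing used here gives the threshold, control or pooling. The deposited lists hold chromosome, start and end in bp and no other value, so the authors' peak height, reads and depth are unknown. Starts and ends are printed as listed. The list names end in a number of unstated meaning, which differs between RYBP and the other lists. Whether RYBP peaks were called under another setting is therefore unknown.

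Peaks sharing at least 1 bp were merged (Python 3.11.15, pandas 2.3.3), checked against bedtools 2.31.1, which gave the same 13390 regions and 1049 members, and on simulated regions, where 2000 of 2000 were recovered. Gaps run from edge to edge. Midpoints and ends use the 986 members with 1 peak of each list. Members and lists were chosen with earlier results of these data known, and regions named by position follow a rule on width, cover and distance, except those on the X chromosome and the 3 dense stretches, singled out after their values were seen. No genome or gene annotation of mm9 was used, so genes and sequences are not given. No replicate or test across libraries was possible. Alternatives are in the closing section.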

Additional observations from a re-analysis of the deposited data

How the results depend on the processing

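Of 150 values under 10 alternatives, 116 stayed within the interval of the main value or within 1.5 times its count and 34 moved. The values have no sign, and the comparisons with other kinds of region were not rerun under the alternatives. Touching peaks joined, peaks required to share 50% of the shorter one, a base required under all 3 lists, and leaving out X and Y moved none. These settings kept 1039 to 1049 of the 1049 members, so they could change little. In contrast, 12 of 15 values moved with peaks of at least the median width, and 14 of 15 with lists of equal length. With peaks of at least the median width of their list, there were 524 members with a median width of 2621.5 bp, 21.9% had another member within 100 kb, 17.2% had a Cbx7 peak within 100 kb, and the median gap to Cbx7 was 485220 bp; they overlapped 370 of the 1049 members. With lists cut to equal length by width, there were 213 members with a median width of 2957 bp, 57.7% of a member under all 3 lists, 23.0% with another within 100 kb, a median of 276 bp between RYBP and Ring1B midpoints, 8.68% of the RYBP peaks in members and a median gap to Cbx7 of 153137 bp. With lists of equal length, 36.6% of members had a Cbx7 peak within 100 kb. The RYBP peak lay inside the Ring1B peak in 56.3% with lists of equal length and in 59.0% with peaks of at least the median width. Without the 3 dense stretches, chosen after seeing the data, 24.2% had another member within 100 kb and 4.31% within 10 kb. Without members within 5 kb of Cbx7, the share within 10 kb was 2.46%, which follows from that choice. No paired analysis was possible because each target had 1 library. The number of members thus rests on the authors' threshold, which the lists do not allow to be lowered, and depth is unknown.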
